A study of Drosophila melanogaster with 12 samples.

Results

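TrxT, Trxr1 and Sesn are 3 redox defence genes of the fruit fly, followed here in heads of drug-fed flies on 12 two-colour arrays. They were taken from the array's probe annotation by single gene symbol, updated through the Entrez identifier, and are 3 of the 6793 genes that the annotation names singly. TrxT had 1 probe, while Trxr1 and Sesn had 2 probes each. TrxT (CG3315) and Trxr1 (CG2151) lie on the X chromosome and Sesn (CG11299) on chromosome arm 2R in RefSeq's annotation.

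Thioredoxins are small proteins that reduce disulphide bonds in other proteins, and thioredoxin reductase returns them to their reduced form at the cost of NADPH. Flies have no glutathione reductase, so the thioredoxin system also keeps their glutathione reduced. Sestrins are stress-induced proteins that restrain the growth-promoting kinase TOR. Flies without Sesn have raised TOR signalling, store excess fat and lose muscle integrity with age.

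All flies were unmated adult Oregon-R males, labelled 3 to 4 days old, whereas the growth protocol describes a longer stay on normal food before treatment, so their age is uncertain. The first group ate food with 8 mg/ml pentylenetetrazole (PTZ, a convulsant) and 5 mg/ml levetiracetam (LEV, an antiepileptic) for 12 h, and the second ate both drugs for 2 days. The last group ate both drugs for 4 days and then PTZ alone for 3 days, with heads taken on day 7. One passage of the series text names LEV instead of PTZ for those last 3 days, whereas the treatment protocols of the 7 d arrays name PTZ. Controls of each time ate normal food for the same period. Each group had 4 arrays, and each array paired RNA of pooled drug-fed heads with RNA of pooled control heads treated alongside. Per the series text these pairs of pools were biological replicates. The p-values rest on the spread between arrays, in which differences between pools, dyes and arrays are not separated. Replicates 1 and 2 of every time held the drug-fed sample in the dye Cy5, and replicates 3 and 4 held it in Cy3.

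The values are log2 ratios between both dyes of an array, and every value below has the median of its array subtracted. The sources do not say whether a deposited ratio is always Cy5 over Cy3, or drug-fed over control whatever the dyes. Each result is therefore given first with replicates 3 and 4 turned, which is drug-fed over control if the ratios are Cy5 over Cy3, and then as deposited. Replicates 1 and 2 have the same value in both readings. In pooled head RNA, fewer cells of a type and less RNA per cell cannot be told apart.

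Most spots of the array had no value after the authors' filters. Arrays held values for 781 to 7102 of 13824 probes, and for 100 to 4210 of the 7558 probes with 1 gene symbol. Of the probes with 1 symbol, 66.8% had a value on at least 1 array. Of 10 photoreceptor genes listed as markers, 7 had a probe and all 7 had a value. Among them was inaC, an eye protein kinase C gene, on 9 arrays. Of the listed head fat body genes with a probe, the yolk protein gene Yp2 had a value on 8 arrays. Fbp2 had a value on 3, Lsp2 on 2, Fbp1 on 1, and Yp1 and Yp3 on none. Of the listed glial genes with a probe, the glutamine synthetase gene Gs2 had a value on 9 arrays, nrv2 and alrm on 1 each and moody on none. Of 6 neuronal genes listed as markers, 2 had a probe, and nSyb had a value on 2 arrays and Csp on 1.

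TrxT was among the 8 named probes measured on all 12 arrays, which is 0.106% of the probes with 1 symbol. The other such genes were CG10019, CG7781, Eaat2, Jhbp13, Mpcp2, Sfxn1-3 and jdp. Sesn was measured on 11 arrays, a number that 0.37% of the probes with 1 symbol reached, and lacked a value only on 2 d replicate 4. Trxr1 was measured on 6 arrays (3.41% of such probes had at least as many), namely all 4 of 12 h and replicates 3 and 4 of 7 d. At 2 d it had no value, and whether its level differed there is unknown.

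TrxT encodes a thioredoxin known from the male germ line, and its expression in testis has been described. The list of testis genes had 4 members with a probe (bam, dj, betaTub85D and Mst98Cb), and none of them had a value on any of the 12 arrays. Of all probes with 1 symbol, 66.8% had a value on at least 1 array. What the TrxT probe reads in heads was not tested. At 12 h, TrxT had centred log2 ratios of 0.19, 0.25, 0.82 and -0.27 in replicates 1 to 4 with the dye-swapped arrays turned. Replicate 3 stood highest, and replicate 4 was the only array below 0. The mean was 0.25 ± 0.45 (SD, n = 4), which is 1.19 times the control level with a 95% interval of 0.749 to 1.88. Without replicate 3 the mean was 0.06, and without replicate 4 it was 0.42. As deposited, replicates 3 and 4 read -0.82 and 0.27, and the mean was -0.02 ± 0.53.

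At 2 d, TrxT stood at 0.20, -0.85, 0.22 and -0.08 in replicates 1 to 4. Replicate 2 lay far below the other arrays, which stayed within 0.22 of 0. Its mean was -0.13 ± 0.50 (n = 4), or 0.915 times the control level with an interval of 0.553 to 1.51, and -0.20 ± 0.47 as deposited. Without replicate 2 the mean turned to 0.11, and without replicate 1 or 3 it was -0.24. On that array the named probes had a deposited median of -0.97, against -0.44 over all probes. Set against the named probes only, TrxT in replicate 2 stood at -0.33, and the 2 d mean was -0.05 ± 0.24.

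At 7 d, after the change to PTZ alone, TrxT stood at 0.48, 0.10, 0.61 and 1.40 in replicates 1 to 4. All 4 arrays lay above 0 after centring, whereas uncentred and turned, replicate 4 alone did. Replicate 4, the array with the most values, stood highest. Of the 603 probes with a value on all 4 arrays of 7 d, 39 (6.47%) were above 0 on all 4. The mean of TrxT was 0.65 ± 0.55 (n = 4), or 1.57 times the control level with an interval of 0.861 to 2.86. Its size exceeded that of 76.8% of the 865 probes tested, and of 91.5% of the 142 with 1 symbol, whose own median was 0.17. As deposited these shares were 41.3% and 50%, and without centring they were 38.2% and 50%. Without replicate 4 the mean was 0.40, and on the Cy5-treated arrays alone it was 0.29. As deposited, replicates 3 and 4 read -0.61 and -1.40, so the arrays split evenly around 0, with a mean of -0.36 ± 0.83.

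TrxT did not pass the test at any time. In limma's one-sample test the adjusted p was 0.882 at 12 h, 0.995 at 2 d and 0.923 at 7 d, and 0.992, 0.705 and 0.718 as deposited. At 12 h, 0% of 1283 probes passed an adjusted p of 0.05 in either reading, while 58 (4.52%) had an unadjusted p under 0.05, or 103 (8.03%) as deposited. At 2 d, 0% of 1001 probes passed in either reading, with 16 (1.6%) under 0.05 unadjusted, or 133 (13.3%) as deposited. At 7 d, 0% of 865 probes passed in either reading, with 34 (3.93%) under 0.05 unadjusted, or 69 (7.98%) as deposited. For TrxT alone, an exact sign-flip permutation test over the 4 arrays of 7 d gave a two-sided p of 0.125, the smallest that 4 arrays allow, and 0.5 as deposited.

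**Figure D1:**
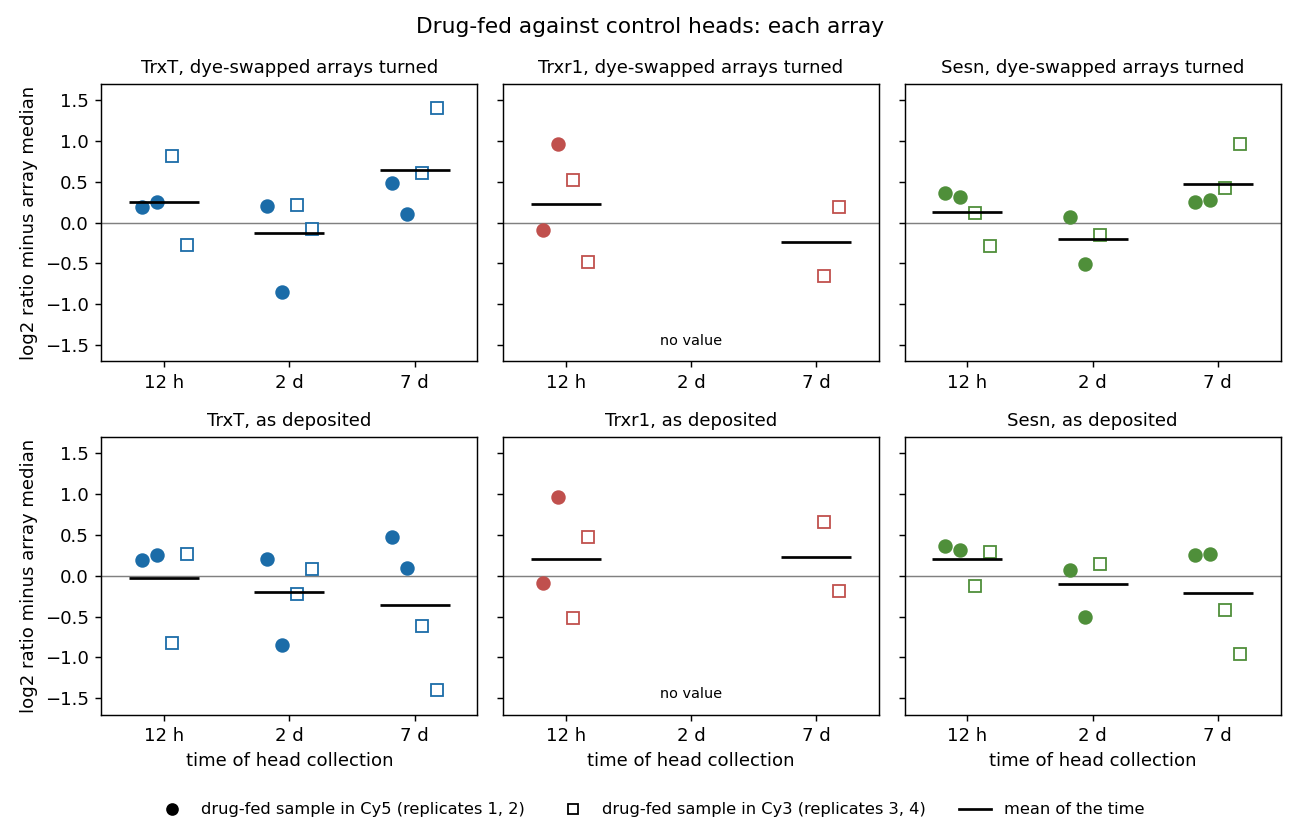
Each point is 1 array's log2 ratio minus the array's median for TrxT, Trxr1 and Sesn at 12 h, 2 d and 7 d. Filled circles hold the drug-fed sample in Cy5, open squares in Cy3, and black lines are means. With dye-swapped arrays turned (upper row), TrxT and Sesn lie above 0 on all 4 arrays of 7 d, and as deposited (lower row) their open squares of 7 d lie below 0.

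Trxr1 encodes thioredoxin reductase, in cytosolic and mitochondrial forms. At 12 h it stood at -0.09, 0.96, 0.52 and -0.48 in replicates 1 to 4. The arrays fell on both sides of 0 within each dye orientation. The mean was 0.23 ± 0.64 (n = 4), or 1.17 times the control level with an interval of 0.674 to 2.04, and 0.21 ± 0.65 as deposited. Without replicate 2 the mean was -0.01, without replicate 3 it was 0.13 and without replicate 4 it was 0.47. The adjusted p in limma was 0.916, and 0.872 as deposited. At 7 d the 2 arrays with a value, both with the drug-fed sample in Cy3, held -0.66 and 0.19 after turning. Their mean of -0.24 ± 0.60 (n = 2), or 0.24 ± 0.60 as deposited, was not tested, since the test required 3 arrays of a time.

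Sesn encodes the fly's sestrin. At 12 h it stood at 0.36, 0.31, 0.12 and -0.29 in replicates 1 to 4, with replicate 4 alone below 0. The mean was 0.13 ± 0.30 (n = 4), or 1.09 times the control level with an interval of 0.731 to 1.63, and 0.21 ± 0.22 as deposited. Without replicate 1 the mean was 0.05, without replicate 2 it was 0.06 and without replicate 4 it was 0.26. As deposited, 3 of the 4 arrays lay between 0.29 and 0.36 and replicate 3 at -0.12.

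At 2 d, Sesn stood at 0.07, -0.51 and -0.15 in replicates 1 to 3. As for TrxT, replicate 2 was the lowest array. The mean was -0.20 ± 0.29 (n = 3), or 0.872 times the control level with an interval of 0.50 to 1.52, and -0.10 ± 0.36 as deposited. Without replicate 2 it was -0.04, and without replicate 1 it was -0.33. Set against the named probes only, Sesn in replicate 2 stood at 0.01, and the mean was -0.07 ± 0.19.

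At 7 d, Sesn stood at 0.25, 0.27, 0.42 and 0.96 in replicates 1 to 4. All 4 arrays lay above 0 after centring, whereas uncentred and turned, replicate 4 alone did. Of the probes measured on all 4 arrays, 6.47% lay above 0 on all 4 after centring. Replicate 4 was again the highest. The mean was 0.47 ± 0.33 (n = 4), or 1.39 times the control level with an interval of 0.805 to 2.39. Its size exceeded that of 63.7% of the 865 probes tested, whose own median was 0.11. Of the 142 with 1 symbol, with a median of 0.17, it exceeded 80.3%. As deposited these shares were 26.4% and 30.3%, and without centring they were 14.8% and 22.5%. Without replicate 4 the mean was 0.31, and on the Cy5-treated arrays alone it was 0.26. As deposited, replicates 3 and 4 read -0.42 and -0.96, and the mean was -0.22 ± 0.59. Sesn did not pass at any time, with limma adjusted p of 0.949 at 12 h, 0.995 at 2 d and 0.923 at 7 d, and 0.802, 0.858 and 0.798 as deposited. The exact sign-flip permutation p over the 4 arrays of 7 d was 0.125, the smallest that 4 arrays allow, and 0.625 as deposited.

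Centring mattered for these levels, because array medians were not at 0. Without it, the median over tested probes was 0.47 at 12 h, -0.17 at 2 d and -0.23 at 7 d, against -0.05, -0.06 and 0.11 with it. The uncentred means of TrxT were 0.75 at 12 h, -0.23 at 2 d and 0.27 at 7 d. Those of Sesn were 0.63, -0.38 and 0.10, and that of Trxr1 at 12 h was 0.74. Relative to the median of all tested probes, each of these differences at 12 h was under 0.3. At 7 d the uncentred ratios of replicates 1 to 4, as deposited, were -0.20, -0.53, 0.13 and -1.95 for TrxT. For Sesn they were -0.42, -0.37, 0.32 and -1.51. With replicates 3 and 4 turned, replicate 4 alone lay above 0 in both genes.

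Averaged with equal weight over the 3 times, TrxT stood at 0.26 ± 0.17 (SE, 12 arrays) and Sesn at 0.13 ± 0.15 (SE, 11 arrays). These correspond to 1.19 times the control level for TrxT, with an interval of 0.923 to 1.54, and 1.10 times for Sesn, with an interval of 0.875 to 1.38. TrxT lay above 0 on 9 of 12 arrays and Sesn on 8 of 11, against 7 of 12 and 7 of 11 as deposited. As deposited, both averages changed sign, to -0.19 ± 0.19 for TrxT and -0.03 ± 0.16 for Sesn. The limma adjusted p was 0.943 for both genes, and 0.579 for TrxT and 0.935 for Sesn as deposited. With the dye-swapped arrays turned, 0% of 840 probes passed and 44 (5.24%) had an unadjusted p under 0.05. As deposited, 25 of the 840 (2.98%) passed and 189 (22.5%) were under 0.05 unadjusted. Neither gene was among those that passed.

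Between times, with the dye-swapped arrays turned, the largest differences of both genes were those of 7 d against 2 d. TrxT was 0.78 ± 0.42 log2 units higher at 7 d than at 2 d (SE), and Sesn 0.67 ± 0.37. With single arrays left out, these ran from 0.53 to 0.96 for TrxT and from 0.51 to 0.80 for Sesn. TrxT was lowest without 7 d replicate 4. The groups differ both in the drugs eaten last and in time on drugs, which cannot be told apart. In this contrast 0% of 840 probes passed, with 26 (3.1%) under an unadjusted p of 0.05, and the limma adjusted p was 0.892 for both genes. As deposited, the same differences were -0.16 ± 0.47 for TrxT and -0.12 ± 0.41 for Sesn (adjusted p = 0.982 for both), with 0% passing and 46 (5.48%) under 0.05 unadjusted. The 7 d values exceeded those of 12 h by 0.40 ± 0.42 for TrxT and 0.35 ± 0.34 for Sesn (limma adjusted p = 0.964 for both). There too 0% of probes passed, with 36 (4.29%) under 0.05 unadjusted. The 2 d values minus those of 12 h were -0.38 ± 0.42 for TrxT and -0.32 ± 0.37 for Sesn (limma adjusted p = 0.999 for both), with 0% of probes passing and 32 (3.81%) under 0.05 unadjusted. As deposited they were -0.17 ± 0.47 for TrxT and -0.31 ± 0.41 for Sesn, with 0% passing and 47 (5.6%) under 0.05 unadjusted. As deposited, the 7 d minus 12 h differences changed sign, to -0.33 ± 0.47 for TrxT and -0.43 ± 0.38 for Sesn, with 0% passing and 50 (5.95%) under 0.05 unadjusted. Trxr1 entered none of these contrasts, having no value at 2 d.

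**Figure D2:**
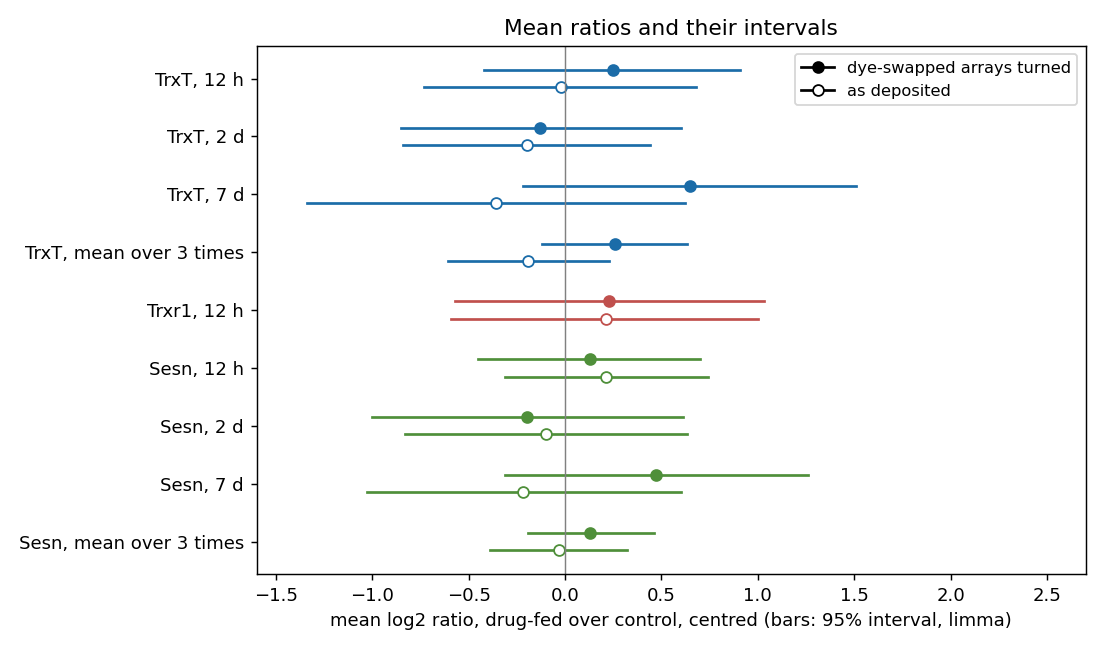
Mean centred log2 ratios of drug-fed over control heads with 95% intervals from limma, by gene and time and averaged over the 3 times. Filled points have dye-swapped arrays turned and open points are as deposited. All 18 intervals include 0, and the filled and open points of TrxT and Sesn at 7 d lie on opposite sides of it.

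On most arrays with a value, both spots of a member's probe lay closer together than those of most probes on the same array. The gap between both TrxT spots had a median of 0.110 log2 units and ran from 0.018 to 0.564, and it was below the array's own median gap on 10 of 12 arrays. For Sesn the median gap was 0.175 and all 11 arrays lay below their array's median gap. For Trxr1 it was 0.140, with 5 of 6 arrays below. The largest TrxT and Trxr1 gaps, 0.564 and 0.741, were both on 12 h replicate 3, the array whose probes had the widest median gap (0.748). At each time, a member's SD between arrays was larger than its median gap between spots. Single gaps could exceed the SD, as for Sesn at 7 d. There the gaps were 0.487 and 0.398 in replicates 1 and 2, against an SD of 0.33. An SD over arrays and a gap between spots are unlike measures.

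Second probes of Trxr1 and Sesn were measured too rarely to be tested, and those of Sesn did not match the first. On 12 h replicate 4 the second Sesn probe stood at 1.62 after turning, against -0.29 for the first probe. On 7 d replicate 4 it stood at -0.29, against 0.96. The second Trxr1 probe had a value on 7 d replicate 4 alone, at -0.04, against 0.19 for the first. Which Sesn probe reads the gene more faithfully was not tested.

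**Figure D3:**
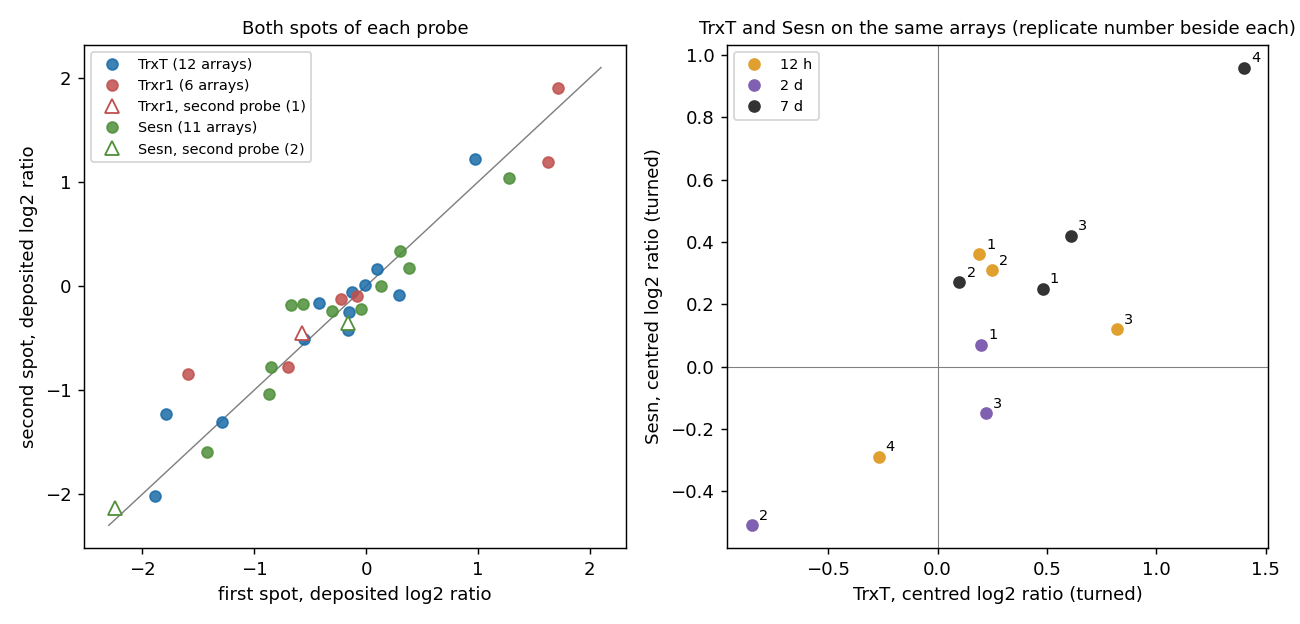
Left, deposited log2 ratios of the first (x) and second spot (y) of each member's probe, 1 point per array, with second probes as open triangles and the line of equality in grey. Right, centred and turned log2 ratios of TrxT (x) and Sesn (y) on the 11 arrays they share, coloured by time and marked with the replicate number. Replicate 2 of 2 d lies lowest and replicate 4 of 7 d highest in both genes.

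TrxT and Sesn followed each other over arrays. Over the 11 arrays with both, Pearson's r of the turned values was 0.87 and Spearman's rho 0.63. As deposited r was 0.93 and rho 0.77. Without 2 d replicate 2 and 7 d replicate 4, the 2 arrays farthest from the median of TrxT, r was 0.53, or 0.82 as deposited. Both values of a point share the array and its centring, and TrxT correlated with many other named genes. Over the 135 genes sharing at least 8 arrays with TrxT, the median r was 0.63, or 0.57 as deposited, and Sesn ranked 11 of 135. The genes most like TrxT were Tsp42Ej, a tetraspanin gene, at an r of 0.97 over 9 arrays (0.95 as deposited), Ubi-p5E, a polyubiquitin gene, at 0.93 over 9 (0.98 as deposited), and Xport-A, a chaperone gene of photoreceptors, at 0.93 over 10 (0.92 as deposited). Those most like Sesn were CG17977 and CG14292, each at 0.94 over 9 and 8 arrays (0.94 and 0.93 as deposited), and RpL15, of the large ribosomal subunit, at 0.94 over 9 (0.81 as deposited), where the median over 127 genes was 0.54, or 0.62 as deposited.

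The rest of the thioredoxin system was measured sparsely. Of the 6 thioredoxin and thioredoxin reductase genes on the array, 5 had a value and 2 were tested, TrxT and Trxr1, neither of which passed. The median of their 2 means at 12 h was 0.24, against -0.05 over all tested probes and -0.01 over those with 1 symbol. As deposited it was 0.10, against 0.05 over either set. The female germ line thioredoxin gene dhd stood at -0.89 ± 0.48 (n = 2) at 12 h on turned dye-swapped arrays and at 0.43 on 1 array at 7 d. Trx2, the widely expressed thioredoxin gene, had -0.38 on 1 array of 12 h, Trxr2, a further thioredoxin reductase gene, had 0.32 on 1 array of 7 d, and Txl had no value. All of these came from arrays with the drug-fed sample in Cy3, and as deposited their signs are opposite.

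Peroxiredoxins pass electrons from thioredoxin to peroxides. Of 7 genes for peroxiredoxins, superoxide dismutases and related peroxidases with a probe, 5 had a value and none was measured on 3 arrays of a time. The mitochondrial peroxiredoxin gene Prx3 stood at -0.21 ± 0.08 (n = 2) at 12 h and 0.38 on 1 array at 7 d. Sod2, the mitochondrial superoxide dismutase gene, stood at 0.81 ± 1.40 (n = 2) at 12 h, a spread wider than its mean. Gclm, the modifier subunit gene of glutathione synthesis, stood at -0.39 ± 0.33 (n = 2) at 12 h. The arrays behind these values all held the drug-fed sample in Cy3, so every sign is the opposite as deposited. The transcription factor gene cnc, a regulator of redox genes, had no probe, its partner maf-S had 2 values and Keap1, which restrains cnc, had none.

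Glutathione S-transferases couple glutathione to drugs and oxidation products. Of 23 such genes with a probe, 12 had a value, 4 were tested at some time and 0 passed. At 12 h GstE12 stood at 0.34 ± 0.22 (n = 4), GstE13 at 0.34 ± 0.48 (n = 3) and GstT3 at -0.15 ± 0.59 (n = 3), with limma adjusted p of 0.867, 0.876 and 0.960. As deposited they stood at -0.01 ± 0.45, -0.12 ± 0.62 and 0.49 ± 0.16. At 2 d GstD1 stood at 0.20 ± 0.12 (n = 3) and GstE12 at -0.07 ± 0.27 (n = 4), with adjusted p of 0.995 for both in limma. As deposited these were 0.15 ± 0.20 for GstD1 and -0.19 ± 0.17 for GstE12. At 7 d GstE12 had 0.78 ± 0.19 on the 2 dye-swapped arrays, untested, and -0.78 ± 0.19 as deposited. The list medians, over 3 tested genes at 12 h and 2 at 2 d, were 0.34 and 0.07. All tested probes had medians of -0.05 and -0.06, and those with 1 symbol -0.01 and -0.10. As deposited, the list medians were -0.01 and -0.02. In that reading all tested probes had 0.05 and -0.01, and those with 1 symbol 0.05 and -0.20.

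Sestrin acts on TOR through the kinase AMPK and the GATOR complexes. Of 12 genes of this list with a probe, 11 had a value, and Sesn and S6k, the kinase gene downstream of TOR, were tested. S6k stood at -0.08 ± 0.13 (n = 4) at 12 h, or -0.11 ± 0.10 as deposited, with limma adjusted p of 0.960 and 0.907. The AMPK subunit gene alc had 5 values in all, at 1.24 on 1 array of 12 h, -0.39 ± 0.14 (n = 2) at 2 d and -0.22 ± 0.08 (n = 2) at 7 d, and as deposited at -1.24, -0.39 ± 0.14 and 0.05 ± 0.31. Nprl2, Nprl3, Iml1, Wdr24 and Wdr59, of the GATOR complexes, had 1 value each at 7 d, from -0.56 to 0.02, and Nprl3, Iml1 and Wdr59 also had 1 at 12 h, from 0.72 to 0.93. For foxo, a stress-responsive transcription factor gene, the single values were 1.11 at 12 h and -0.34 at 7 d. The drug-fed sample was in Cy3 on the arrays behind these GATOR and foxo values, so each sign is the opposite as deposited. The Sesn and S6k means had a median of 0.03 at 12 h, or 0.05 as deposited.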

How the data were processed

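The authors deposited 1 log2 ratio per spot, normalized as the series design text describes. Per that text, arrays were scanned on a GenePix 4000A, quantified with GenePix Pro 6.0 and ratio-normalized in Acuity 4.0. Their filters then removed saturated, flagged or dim spots, those with a pixel R2 under 0.6 and those with signal to noise under 3. Scanner intensities were not used here, so signal over background is unknown, and the number of arrays limits the precision. The sources give neither the centring nor the direction of the ratios. On 2 d replicate 4 and 7 d replicate 1 the source names label each channel untreated, so the drug-fed sample's dye was read from the treatment protocols. At 12 h and 7 d the dye-swapped arrays are unnumbered in the labels and took numbers 3 and 4 in accession order.

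The 27648 spots were averaged as 13824 adjacent pairs, and all 7609 annotated pairs shared their annotation. Platform symbols were single for 7558 probes, several for 51 and absent for 6215, and 7447 were updated through RefSeq's Release 6 plus ISO1 MT table. Each array was centred on the median of all its probes. A gene was read from its probe with values on the most arrays. Probes on at least 3 of 4 arrays of a time were tested against 0 with limma 3.58.1 in R 4.3.3 (two-sided, Benjamini-Hochberg over all probes tested, threshold 0.05). Averages over times and differences between times came from a joint fit of 12 arrays, restricted to probes with 2 or more values at each time. Scripts were tested on simulated data. Alternatives covered direction, centring, a dye term, array and spot filters, the probes fitted and each array left out. Genes of each list tested at a time were named, as were the 3 genes most correlated with a member measured on at least 8 arrays. The members and lists were chosen with earlier results of these data known.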

Additional observations from a re-analysis of the deposited data

Results flagged for a closer look

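On 12 h replicate 3, read as deposited, TrxT stood at -0.82, far from the other 3 arrays of 12 h, which lay between 0.19 and 0.27. On the same array and in the same reading, Sesn stood at -0.12, apart from the other 3 arrays at 0.29 to 0.36. Turned, neither value stood apart in this way. In 12 groups of 4 arrays checked, counting both readings, chance flags about 1 in 20. This array had the widest median gap between spots of a probe (0.748), and its part in these values was not tested.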

How the results depend on the processing

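No member passed in any setting, the smallest adjusted p being 0.25 (TrxT, 7 d against 2 d, fitted over the 100 probes with 1 symbol). Of 255 comparisons of a member's value with its alternatives, 239 kept direction and 16 changed it. Many of the 239 could not have changed. Restricting the other probes fitted, or leaving out an array of a time outside a contrast, left a member's value as it was. The 239 are therefore no measure of stability. As deposited, direction changed for TrxT at 12 h (-0.02), 7 d (-0.36), averaged over times (-0.19), 7 d against 12 h (-0.33) and 7 d against 2 d (-0.16), and for Sesn at 7 d (-0.22), averaged (-0.03), 7 d against 12 h (-0.43) and 7 d against 2 d (-0.12), and for the untested Trxr1 mean at 7 d (0.24). Without centring, 7 d against 12 h turned to -0.48 for TrxT and -0.53 for Sesn, as array medians differ between times. With single arrays left out, Trxr1 at 12 h ranged from -0.01 to 0.47, TrxT from 0.06 to 0.42 at 12 h and -0.24 to 0.11 at 2 d, and Sesn from 0.05 to 0.26 at 12 h. Averages over times were lowest without 7 d replicate 4 (TrxT 0.17, Sesn 0.08), as was 7 d against 12 h (0.15 and 0.19), which was 0.23 and 0.21 without 12 h replicate 4. For 2 d against 12 h, TrxT was -0.13 without 2 d replicate 2 and -0.19 without 12 h replicate 3, and Sesn -0.16 without 2 d replicate 2. The count of passing probes moved from 0 to 10 at 7 d without centring, to 25 for the average over times as deposited, and to 1 for that average over probes with 1 symbol. With single arrays left out, counts ran from 0 to 1 for the average, 2 d against 12 h and 7 d against 2 d, with the 1 in each without 2 d replicate 3, and for the last also without 7 d replicate 1. The cause of these changes was not tested. A replicate block, possible over replicates 1 and 2 only, turned 7 d against 12 h for Sesn to -0.08, as those arrays did without the block (-0.08). The difference between replicates 1 and 2 was correlated over probes between times. It correlated at 0.00399 to 0.0826 for 2 pairs of times and at -0.0445 for the third. With a single difference per time, and replicates 3 and 4 left out, this cannot decide whether the numbers pair the arrays. A dye term changed no member's direction, but with 2 arrays in each dye it leaves a mean as it is. Only Sesn, with 3 arrays at 2 d, could shift, and its 2 d value was -0.18 with the term against -0.20 without. Few arrays and missing spots limit every value: at 7 d the interval for TrxT spans 0.861 to 2.86 times control.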
